A study of Mus musculus with 20 samples.

Results

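The genes described here are 10 named members, the Kruppel-like factor genes Klf2, Klf3, Klf4, Klf5, Klf6, Klf7, Klf9, Klf10 and Klf13, and Rhob, which encodes a small GTPase. They were chosen by name with earlier results of these data known, and Klf2, Klf4 and Rhob were set apart because of their signal at 1, 8 and 12 h. Of the 10 genes, 9 have probe sets that the array annotation pairs with a single gene symbol, 23 probe sets in all, out of 17097 genes named that way. Klf7 has none and is not analysed here.

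The cells were mouse embryonic fibroblasts that had been immortalized with SV40 and carried the genotype Ampkα1/α2 double knockout, so every group, the control included, lacks both catalytic subunit genes of AMPK, a kinase that AMP activates when energy runs low. RNA was hybridised to 20 Affymetrix MG-430 PM arrays in 7 groups: an untreated control at 0 h, and 1 mM AICAR for 1, 2, 4, 8, 12 and 24 h, with 3 arrays each except 2 at 8 h. AICAR is an adenosine analog that cells convert to ZMP, a mimic of AMP, and the series asks how transcripts change with AICAR over time in cells without AMPK. No wild-type cells and no untreated cells at the later times are among the groups, so time in culture and AICAR cannot be told apart, and all comparisons against 0 h share the same 3 control arrays. The labels do not say that replicates came from separate cultures or separate cell lines, so the p-values given cover no more than the array-to-array spread, and that spread may be technical.

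Values are the deposited log2 signals, so a difference of 1 is a doubling of the signal. A level under 5.08, the 95th percentile of the signal of 23 nonspecific control probe sets, is called background here. Array medians ran from 5.16 to 5.32 and were highest on the third array at 2 h and the second at 4 h, and the third array at 1 h had the lowest 99th percentile (11.8). The actin 3' minus 5' signal, a sign of RNA quality, was 0.383 to 0.458 in the controls, 0.503 to 0.557 at 24 h, and highest on the second arrays at 4 h (0.689) and 8 h (0.646). Prkaa1 gave a signal of 7.92 to 8.36 and Prkaa2 of 5.42 to 6.98 over the 20 arrays, but with no wild-type array, and with the place of the probes against the deleted part not given, these check nothing about the knockout. Fibroblast markers were present throughout, with 6 of 8 above background in every group (Col1a2 and Thy1 were not) and a log2 summed signal of 13.0 to 13.4.

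Kruppel-like factors bind GC-rich and CACCC-type DNA through zinc fingers at the end of the protein, and differ mainly in the part that recruits coactivators or corepressors. Several are early response genes with short-lived transcripts. Klf2 and Klf4 are best known for keeping vascular endothelium quiescent, where the kinase ERK5 and MEF2 factors induce them, and Klf4 is also a reprogramming factor for pluripotent cells. RhoB shares most of its sequence with RhoA, but sits largely on endosomes, and its transcript is itself quickly induced and quickly lost after stress or growth factor signals.

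The promoters of Klf2, Klf4 and Rhob are shown because these genes differ most in the time course. Each line is the 250 bases before the annotated start in RefSeq (mouse build GRCm38.p6), written 5' to 3' on the gene's strand, with matches to short motifs in capitals. The regions are chr8:72318812-72319061 on the plus strand for Klf2, chr4:55532476-55532725 on the minus strand for Klf4 and chr12:8500010-8500259 on the minus strand for Rhob.
Klf2: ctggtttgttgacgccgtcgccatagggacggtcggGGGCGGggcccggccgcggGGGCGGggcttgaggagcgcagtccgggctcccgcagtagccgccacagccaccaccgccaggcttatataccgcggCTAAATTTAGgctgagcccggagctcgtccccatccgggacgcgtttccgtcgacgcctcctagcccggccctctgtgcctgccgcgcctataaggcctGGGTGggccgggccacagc
Klf4: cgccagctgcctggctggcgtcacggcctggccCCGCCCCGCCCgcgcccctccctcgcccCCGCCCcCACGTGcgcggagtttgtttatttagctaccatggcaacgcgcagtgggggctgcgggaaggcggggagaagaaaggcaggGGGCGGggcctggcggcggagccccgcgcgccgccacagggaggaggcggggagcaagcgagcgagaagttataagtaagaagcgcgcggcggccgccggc
Rhob: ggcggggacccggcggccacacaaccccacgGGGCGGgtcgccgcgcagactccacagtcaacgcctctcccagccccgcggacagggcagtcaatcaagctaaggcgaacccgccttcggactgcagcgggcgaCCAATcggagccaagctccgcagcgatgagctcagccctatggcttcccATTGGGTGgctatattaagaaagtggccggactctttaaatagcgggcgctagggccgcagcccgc

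The search covered both strands for the TATA box TATAAA, the CCAAT box CCAAT, the GC box GGGCGG, the CACCC box CACCC, the cyclic AMP response element TGACGTCA, the AP-1 site TGANTCA, the E-box CACGTG, and the MEF2 site and the CArG box by their usual patterns. The Klf2 window held 2 GC boxes, 214 and 195 bases before the start, a MEF2 match 118 bases before it and a CACCC match 19 bases before it on the other strand. The Klf4 window held 4 GC boxes, at 217, 212, 189 and 101 bases, those at 217 and 212 sharing a base, and an E-box at 182 bases. The Rhob window held a GC box at 219 bases, CCAAT matches at 115 and 66 bases and a CACCC match at 63 bases that overlaps the second CCAAT match. Over the same window of all 32851 promoters in the table, a GC box was in 32.7%, a CACCC match in 52%, a CCAAT match in 33.8%, an E-box in 6.02% and a MEF2 match in 2.92%. TATAAA was in 12.4%, the cyclic AMP response element in 1.55%, the AP-1 site in 6.75% and the CArG box in 1.47%, and none of these was in the 3 windows printed. The windows were GC-rich, at 71.2% for Klf2, 74.0% for Klf4 and 66% for Rhob against a median of 52.4%. These matches describe letters in a window and were not tested for binding. Of the 10 genes, 8 have an entry in the table, Klf7 among them; Klf5 and Klf10 are not in it.

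**Figure D1:**
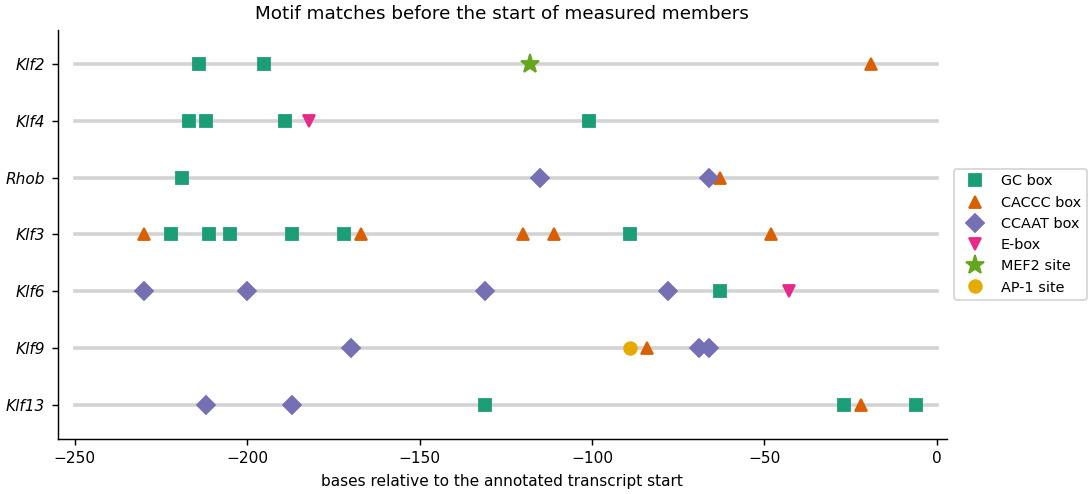
Motif matches in the 250 bases before the annotated start of the 7 measured genes with an entry. The x axis is the distance from the start in bases, each row is a gene and each symbol a kind of motif, placed at the most 5' base of the match; the only MEF2 match is in Klf2, 118 bases before its start.

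Klf2, a transcription factor gene that quiescent cells express, was lower at first and higher later. Its log2 signal was 7.25, 7.07 and 6.93 on the control arrays, 6.26, 6.08 and 6.11 at 1 h, and 6.42, 6.45 and 6.59 at 2 h. It then stood at 7.17, 7.86 and 7.65 at 4 h, 8.44 and 8.35 at 8 h, 8.62, 8.73 and 8.38 at 12 h, and 7.73, 7.77 and 7.37 at 24 h. All arrays at 1 and 2 h lay below all controls, those at 8, 12 and 24 h above them, and those at 4 h overlapped them. In the order of the group means, 12 h was not separated from 8 h, 24 h from 4 h or 4 h from the control, while 8 h stood above 24 h, the control above 2 h and 2 h above 1 h without overlap.

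Klf2 fell by 0.60 at 2 h (SE 0.15; limma adjusted p = 0.0472) and rose by 0.54 at 24 h (SE 0.15, 1.45-fold; adjusted p = 0.00565). At 4 h it was 0.47 above the controls (SE 0.15; adjusted p = 0.0406). The 24 h rise passed the test under all 17 alternatives, including each array left out in turn. The other calls were near the threshold. The 2 h call was lost without any single array of its groups (differences of -0.68 to -0.51, adjusted p of 0.0554 to 0.232). The 4 h call was lost without control replicate 2 or 3 (0.47 and 0.40; adjusted p = 0.109 and 0.133), or replicate 2 or 3 at 4 h (0.32 and 0.43; 0.206 and 0.133). It was also lost with median centring (0.43; 0.0804) and when only the 4 h and control arrays were fitted (0.131). The 2 h call was also lost with median centring (0.0558) and with no filter (0.0578). From 2 h to 4 h its signal rose by 1.07 (SE 0.15, 2.10-fold; limma adjusted p = 0.00147), and all 3 arrays at 4 h lay above all 3 at 2 h. In a fit of the 2 and 4 h arrays alone, the calls of Klf2, Klf4, Klf10 and Rhob in this comparison were lost (adjusted p of 0.0832 to 0.0834).

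Klf4 encodes a growth-arrest and reprogramming factor. By its brightest probe set it lay above all controls from 2 h onward, though not past the test at 2 h. Its log2 signal was 8.84, 8.87 and 8.62 in the controls, 8.75, 8.51 and 8.42 at 1 h and 8.99, 9.10 and 8.97 at 2 h. Later values were 9.58, 9.79 and 9.74 at 4 h, 10.31 and 10.32 at 8 h, 10.58, 10.67 and 10.35 at 12 h, and 9.82, 9.90 and 9.79 at 24 h. The groups followed one another without overlap in the order 12, 8, 24, 4 and 2 h and the control, although 4 and 24 h were nearly adjoining, and only the control and 1 h overlapped.

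Klf4 rose by 0.92 at 4 h (SE 0.10, 1.90-fold; limma adjusted p = 1.45e-05) and stood 1.06 above the controls at 24 h (SE 0.10, 2.08-fold; adjusted p = 1.21e-07), and both calls passed under all 17 alternatives. At 2 h the difference of 0.24 did not pass (adjusted p = 0.338). Between 2 and 4 h it rose by 0.68 (SE 0.10, 1.60-fold; adjusted p = 0.00175), a call lost when its probe sets are averaged (0.59; adjusted p = 0.0636). From 4 to 24 h its signal differed by 0.14 (SE 0.10; adjusted p = 0.280).

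Rhob, an endosomal GTPase gene, was slightly below the controls early and stayed high to the end. Its log2 signal was 8.91, 9.02 and 8.82 in the controls, 8.80, 8.64 and 8.58 at 1 h and 8.63, 8.54 and 8.60 at 2 h. It was 9.19, 9.70 and 9.59 at 4 h, 10.42 and 10.19 at 8 h, 10.68, 10.35 and 10.32 at 12 h, and 10.42, 10.33 and 10.52 at 24 h. The 8, 12 and 24 h arrays overlapped each other and lay above all arrays at 4 h, which lay above all controls.

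Rhob rose by 0.58 at 4 h (SE 0.12, 1.49-fold; limma adjusted p = 0.00383) and by 1.51 at 24 h (SE 0.12, 2.84-fold; adjusted p = 2.25e-08), and neither call was lost under any of the 17 alternatives. The early difference of -0.33 at 2 h did not pass (adjusted p = 0.248). Its signal rose by 0.90 from 2 to 4 h (SE 0.12, 1.87-fold; adjusted p = 0.00132) and by a further 0.93 from 4 to 24 h (SE 0.12, 1.91-fold; adjusted p = 5.73e-06). Klf2 differed by 0.07 over that last interval (SE 0.15; adjusted p = 0.737), and whether Rhob and Klf2 differ in it was not tested.

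**Figure D2:**
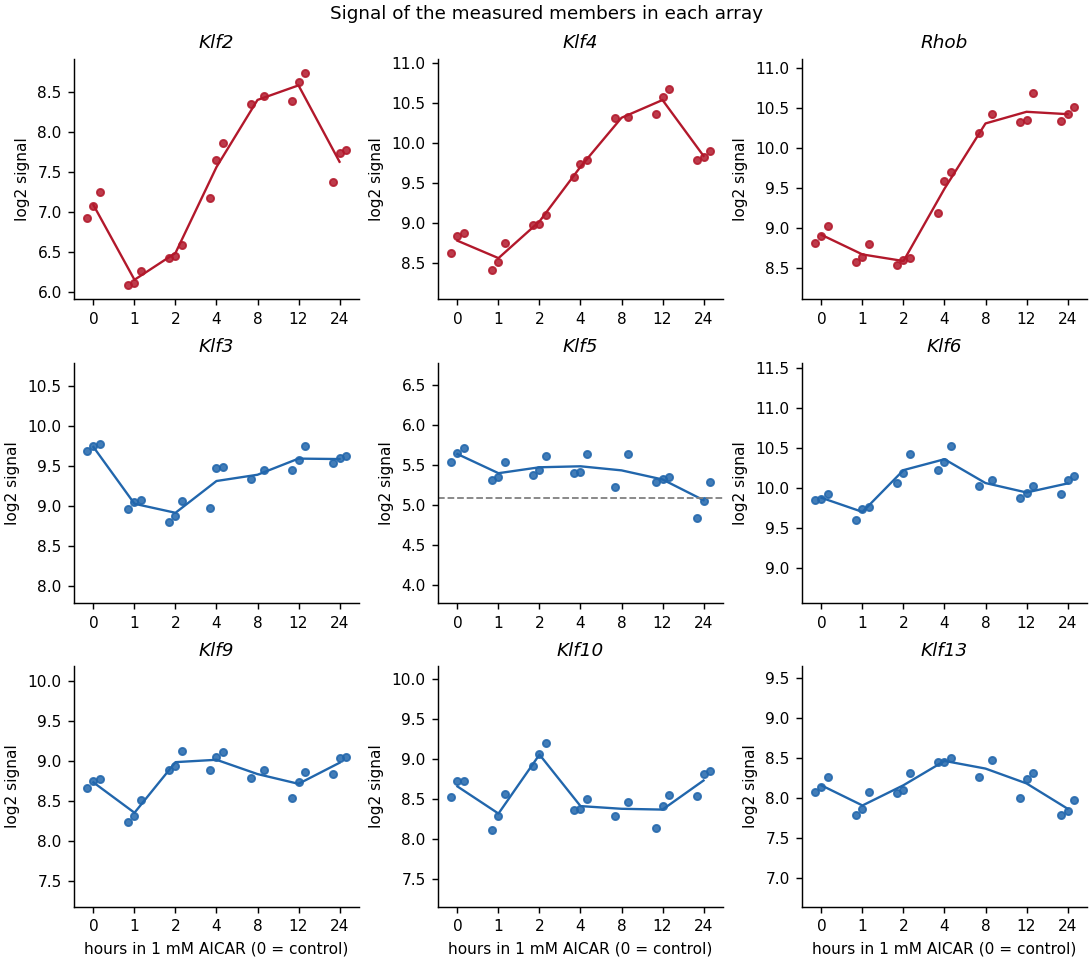
Log2 signal of the 9 measured genes on each of the 20 arrays, 1 panel per gene, against hours in 1 mM AICAR (0 is the untreated control). Points are arrays, placed in order of value within a group, lines join group means, times are evenly spaced and not to scale, and the dashed line in the Klf5 panel is the background level of 5.08; Klf4 runs from 8.62 to 8.87 in the controls to between 10.35 and 10.67 at 12 h, and Klf2 dips to between 6.08 and 6.26 at 1 h.

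The values at 1, 8 and 12 h chose Klf2, Klf4 and Rhob, and are given as a description with no test. The tests of these genes against the controls at the other times used the same control arrays. The main fit also took its spread from all arrays, those at 1, 8 and 12 h included. The p-values of Klf2, Klf4 and Rhob are therefore not independent of this choice. At 12 h Klf4 stood 1.76 above the controls on the log2 scale (3.38-fold), Rhob 1.54 (2.90-fold) and Klf2 1.49 (2.82-fold). At 8 h they stood 1.53, 1.39 and 1.31 above. By their brightest probe sets, the other 6 genes lay between -0.35 (Klf3) and 0.21 (Klf13) at 8 h. At 12 h they lay between -0.32 (Klf5) and 0.07 (Klf6). Over all its probe sets, Klf3 ran from -0.86 to 0.48 at 8 h and from -0.52 to 0.46 at 12 h. Arrays of 6 of the 9 genes were all above the controls at 8 h and of 2 all below, against 26% and 14.9% of the 12944 genes tested. At 12 h these counts were 3 and 1, against 20.7% and 15.8%. Without the second array at 8 h, Klf4 was 1.53, Rhob 1.51 and Klf2 1.36 above the controls.

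After 1 h all 9 means of the brightest probe sets were below the controls. By these probe sets 7 genes had every array below every control, as had 7.95% of the genes tested. Every array lay above every control in 0 members and in 3.68% of genes. The differences ran from -0.93 in Klf2 and -0.71 in Klf3 to -0.18 in Klf6. They were -0.38 in Klf9, -0.34 in Klf10, -0.25 in Klf13, -0.24 in Rhob and in Klf5, and -0.22 in Klf4, and the arrays of Klf4 and Klf10 overlapped the controls. The third array at 1 h, with its low upper range, was among them: without it Klf2 was at -0.91, Klf3 at -0.67, Rhob at -0.20 and Klf6 at -0.12. Without it Klf9 and Klf10 were at -0.32, Klf5 at -0.31, Klf13 at -0.19 and Klf4 at -0.15. The part of this array in the differences was not tested. Of the dimmer probe sets, some of Klf3 and Klf9 also lay below all controls at 1 h, while others overlapped them. Those that overlapped included 1431630_PM_a_at of Klf3 (-0.01), 1427742_PM_a_at of Klf6 (-0.40), 1452723_PM_at of Klf9 (-0.01) and 1432543_PM_a_at of Klf13 (-0.49).

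**Figure D3:**
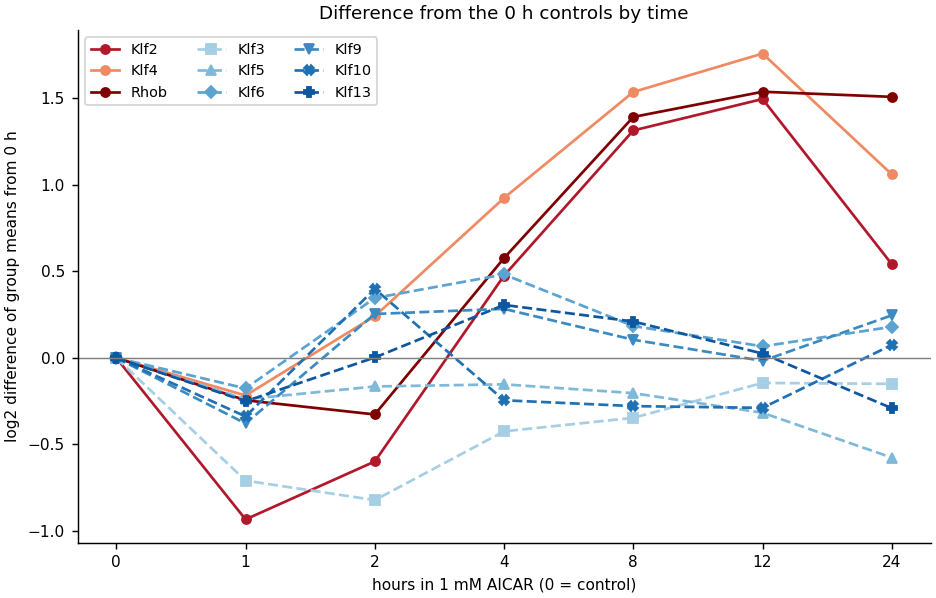
Difference of each group mean from the 0 h control mean, in log2 units, at each time in 1 mM AICAR. Klf2, Klf4 and Rhob are red lines and the other 6 Klf genes blue dashed lines, each by its brightest probe set. Times are evenly spaced on the x axis and not to scale; at 12 h the red lines lie between 1.49 and 1.76 and the blue lines between -0.32 and 0.07.

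Klf3 encodes a repressor that works through the corepressor CtBP. By its brightest probe set, the log2 signal was 9.78, 9.75 and 9.69 in the controls, 9.08, 9.05 and 8.96 at 1 h, and 8.81, 8.88 and 9.07 at 2 h. It was 8.98, 9.49 and 9.48 at 4 h, 9.34 and 9.45 at 8 h, 9.46, 9.75 and 9.57 at 12 h and 9.63, 9.60 and 9.54 at 24 h. The arrays lay below all controls at every time except 12 h, where they overlapped. The brightest probe set fell by 0.82 at 2 h (SE 0.11, 1.77-fold; limma adjusted p = 0.000764) and was 0.42 below the controls at 4 h (SE 0.11; adjusted p = 0.0172). At 24 h its difference was -0.15 (adjusted p = 0.327), while dimmer probe sets of the gene passed, as given below.

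The probe sets of Klf3 went different ways. Of its 6 probe sets, 5 passed the filter on dim values. At 2 h, tested on their own, 1454666_PM_at was at -0.82 (limma adjusted p = 0.00187) and 1429360_PM_at at -1.22 (0.0179). 1421604_PM_a_at was at 0.39 (0.388), with all arrays above all controls, 1431630_PM_a_at at 0.18 (0.687) and 1441200_PM_at at -0.05 (0.963). At 4 h, tested on their own, 1429360_PM_at was lower by 1.01 (adjusted p = 0.0130) along with the brightest set 1454666_PM_at (-0.42; 0.0235). 1421604_PM_a_at was higher by 0.81 (adjusted p = 0.00421) and 1431630_PM_a_at by 0.45 (0.0159), and 1441200_PM_at differed by -0.01. Averaged over all 6 probe sets, Klf3 was at -0.23 at 2 h (adjusted p = 0.102) and -0.018 at 4 h (0.899), past the test at neither. The 4 h call was also lost without the first array at 4 h (-0.26; adjusted p = 0.0813), the first control (-0.41; 0.0675) or the second control (-0.42; 0.0603), and in a fit of the compared groups alone (0.0933). A direction for the gene as a whole at 2 or 4 h is therefore not given. At 24 h, tested on their own, 1429360_PM_at was at -0.99 (limma adjusted p = 0.00328) and 1441200_PM_at at -0.25 (0.0169). 1454666_PM_at (-0.15), 1431630_PM_a_at (-0.12) and 1421604_PM_a_at (0.05) did not pass. Averaged over all 6 probe sets, Klf3 was at -0.24 at 24 h (adjusted p = 0.00545).

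Klf6 encodes an activator known as a tumour suppressor. Its brightest probe set gave 9.86, 9.92 and 9.85 in the controls, 10.18, 10.06 and 10.43 at 2 h, 10.53, 10.32 and 10.23 at 4 h, and 9.93, 10.14 and 10.10 at 24 h. The 4 h arrays lay above all controls. By its brightest probe set, Klf6 rose by 0.48 at 4 h (SE 0.09, 1.40-fold; limma adjusted p = 0.00248) and then fell by 0.30 from 4 to 24 h (SE 0.09; adjusted p = 0.0157). The second of these was lost without the first array at 4 h (-0.22; adjusted p = 0.0906) or the first at 24 h (-0.24; 0.0884), with median centring (-0.24; 0.0511) and in a fit of the compared groups alone (0.0547). Neither held for the average of its 3 probe sets, which gave 0.11 at 4 h (adjusted p = 0.877). The other 2 probe sets had a wide spread: 1418280_PM_at was at 8.24, 5.70 and 6.39 on the 4 h arrays, lowest on the array with the highest actin 3' minus 5' signal. The part of RNA quality in this was not tested. The remaining probe set, 1427742_PM_a_at, had a mean of 9.72 in the controls, against 9.88 for the brightest. Tested on its own, it was at -0.25 at 4 h (limma adjusted p = 0.795) and -0.72 at 24 h (0.241), past the test at neither. Its 24 h arrays all lay below all controls, while those of the brightest set all lay above them, by 0.18 (0.152).

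Klf10, an early gene of TGF-beta signalling that encodes a repressor, was the only member whose signal was highest at 2 h with no overlap with the next group. Its signal was 8.72, 8.73 and 8.53 in the controls, 8.56, 8.12 and 8.29 at 1 h, 9.06, 9.20 and 8.91 at 2 h and 8.37, 8.50 and 8.38 at 4 h. It was 8.47 and 8.30 at 8 h, 8.41, 8.56 and 8.15 at 12 h and 8.85, 8.81 and 8.54 at 24 h. The 2 h arrays lay above all others. Against the controls, the 2 h difference of 0.40 did not pass (SE 0.12; limma adjusted p = 0.141), but 4 of 17 alternatives called it, quantile normalization (0.38; 0.0328), the replicate block (0.0381), the interquartile range covariate (0.41; 0.0114) and array weights (0.42; 0.00491). From 2 to 4 h Klf10 fell by 0.64 (SE 0.12, 1.56-fold; adjusted p = 0.00899), while Klf2, Klf4 and Rhob rose in the same comparison. That fall was lost without the second array at 2 h (-0.57; adjusted p = 0.0717). It then rose by 0.32 from 4 to 24 h (adjusted p = 0.0467), a call lost without replicate 1, 2 or 3 at 4 h (0.30, 0.36 and 0.30; adjusted p = 0.106, 0.0524 and 0.113) or replicate 1 or 2 at 24 h (0.26 and 0.28; 0.167 and 0.142). With the interquartile range of each array as a covariate that difference was 0.15 (adjusted p = 0.253), and with no filter its adjusted p was 0.0568.

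Klf13, which encodes a factor that activates the chemokine gene Ccl5 in T cells, was highest at 4 h and lowest at 24 h by the group means of its brightest probe set. Its brightest probe set was at 8.14, 8.26 and 8.08 in the controls, 8.45, 8.50 and 8.45 at 4 h and 7.98, 7.85 and 7.79 at 24 h, with no overlap among these groups. It fell by 0.60 from 4 to 24 h (SE 0.10, 1.51-fold; limma adjusted p = 6.93e-05), under all 17 alternatives. Against the controls it was 0.31 higher at 4 h (SE 0.10; adjusted p = 0.0475), a call lost without any single array of the 2 groups (0.27 to 0.36; adjusted p of 0.0573 to 0.141) with median centring (0.26; 0.186), with no filter (0.0561) and when its probe sets are averaged (0.01). It was 0.29 lower at 24 h (SE 0.10; adjusted p = 0.0219), a call lost without the second control (-0.24; 0.0995) or replicate 2 or 3 at 24 h (-0.28 and -0.25; 0.0641 and 0.0794), and with median centring (-0.27; 0.0809). Another of its 3 probe sets, 1432543_PM_a_at, was at -0.30 at 4 h (limma adjusted p = 0.690) and -0.73 at 24 h (0.133) against the controls. From 4 to 24 h that probe set was at -0.43 (0.378), and it passed in none of these comparisons.

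Klf5, an activator of proliferation genes in epithelium and smooth muscle, was dim throughout. Its log2 signal was 5.54, 5.66 and 5.71 in the controls and 5.06, 4.84 and 5.29 at 24 h, where the group mean lay below background. It fell by 0.58 at 24 h against the controls (SE 0.12; limma adjusted p = 0.000575) and by 0.42 from 4 to 24 h (SE 0.12; adjusted p = 0.00695). The second call was lost without the second array at 24 h (-0.31; adjusted p = 0.0551). With a mean below background, these differences give no exact fold of the transcript.

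Klf9, a gene that glucocorticoid and thyroid hormones induce, did not pass against the controls, but was near the threshold at 4 and 24 h. Its brightest probe set was at 8.76, 8.78 and 8.67 in the controls, 8.89, 9.12 and 8.94 at 2 h, 9.11, 8.89 and 9.05 at 4 h and 9.06, 9.04 and 8.84 at 24 h. All arrays at these times lay above all controls, by 0.25 at 2 h (limma adjusted p = 0.294), 0.28 at 4 h (0.0689) and 0.25 at 24 h (0.0532). The 24 h difference passed under 8 of 17 alternatives (0.20 to 0.32; limma adjusted p of 0.00281 to 0.0476). One of them was the replicate block (0.0254), and between these 2 groups all 3 same-number pairs of arrays deviated together (r of 0.22 to 0.64). Replicates 1 and 2 at 24 h correlated best with control replicates 2 and 1, so the numbers do not show a pairing. The 4 h difference passed under 4 of 17, quantile normalization (0.00971), the block (0.0273), the interquartile range covariate (0.00433) and array weights (8.45e-05). Averaged over its probe sets, Klf9 was at -0.053 at 24 h (adjusted p = 0.718). Another Klf9 probe set, 1428289_PM_at, was at -0.14 at 4 h and -0.40 at 24 h, not past the test (adjusted p = 0.786 and 0.207).

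Klf4 also has a second probe set, 1417395_PM_at, with a wider spread. It was at 7.36, 7.59 and 7.19 in the controls, 8.16, 7.68 and 7.76 at 4 h, 9.00, 8.91 and 8.05 at 12 h, and 8.10, 7.54 and 7.53 at 24 h. Tested on its own, it was 0.49 above the controls at 4 h and 0.35 at 24 h. It passed at neither time (limma adjusted p = 0.305 and 0.354). At 2 h it was at 7.63, 7.53 and 6.98, overlapping the controls, and differed by 0.001 (limma adjusted p = 0.999). Its 24 h arrays also overlapped the controls. The gap between the brighter and the dimmer Klf4 probe set was 1.28 to 1.48 in the controls and 1.72 to 2.35 at 24 h. At 8 h the gap was 1.52 on the first array and 2.34 on the second. The actin 3' minus 5' signal of these arrays was 0.435 and 0.646. On the second array at 4 h, where that signal was highest (0.689), the gap was 2.10. It was 2.35 on the second array at 24 h, where the signal was 0.557. The part of RNA quality in the gap was not tested. Klf2, Rhob, Klf5 and Klf10 have 1 probe set each, so no such comparison can be made for them.

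**Figure D4:**
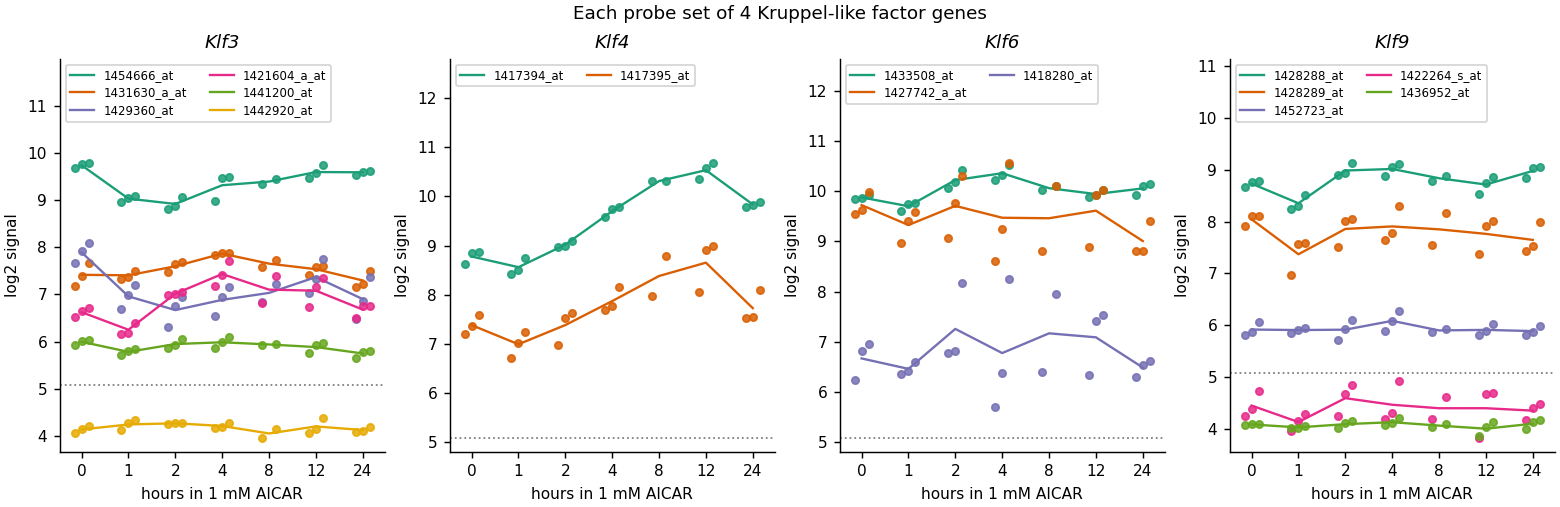
Log2 signal of every probe set of Klf3, Klf4, Klf6 and Klf9 on each array, against hours in 1 mM AICAR (0 is the untreated control; times are evenly spaced and not to scale). Points are arrays, placed in order of value within a group, lines join group means, and the dotted line, where in range, is the background level of 5.08; at 4 h the Klf3 probe sets differ from their controls by -1.01 to 0.81.

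Counted over the 9 genes, 0 rose and 2 fell at 2 h (limma adjusted p under 0.05; 0.471% and 0.997% of the 12944 genes tested). At 4 h 5 rose and 1 fell (5.18% and 6.9%), and at 24 h 3 rose and 2 fell (25.8% and 14.6%). From 2 to 4 h 3 rose and 1 fell (1.4% and 1.44%), and from 4 to 24 h 2 rose and 3 fell (26.9% and 13.3%). Members whose arrays lay all above or all below the other group numbered 4 and 3 at 2 h (8.66% and 8.39% of the genes tested), 5 and 2 at 4 h (13.6% and 15.9%) and 5 and 3 at 24 h (30% and 20%). From 2 to 4 h they numbered 4 and 1 (7.8% and 12.2%), and from 4 to 24 h 4 and 3 (29.6% and 18.4%). Each gene is counted by its brightest probe set, and the other probe sets of Klf3, Klf6 and Klf13 did not all share that direction. At 4 h 1427742_PM_a_at of Klf6 was at -0.25 and 1432543_PM_a_at of Klf13 at -0.30, neither past the test. Averaged over their probe sets, Klf6 was at 0.11 and Klf13 at 0.01 at 4 h, and neither was called. The genes were chosen with results known, so these shares are a description. The median difference of Klf2, Klf4 and Rhob was -0.33 at 2 h, 0.58 at 4 h and 1.06 at 24 h. For the other 6 Klf genes it was 0.13, 0.06 and -0.04, and for all genes tested it was 0.00, 0.01 and 0.01.

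On each array the mean log2 signal of Klf2, Klf4 and Rhob was set against the mean of the other 6 Klf genes. Only its change over time can be read, because levels of different probe sets are not comparable. It was -0.21 ± 0.08 (SD, n = 3) in the controls, -0.33 ± 0.04 at 1 h and -0.44 ± 0.02 at 2 h. It was 0.41 ± 0.24 at 4 h, 1.26 ± 0.00 at 8 h (n = 2), 1.50 ± 0.10 at 12 h and 0.91 ± 0.04 at 24 h. Against the controls the change was 0.62 at 4 h and 1.12 at 24 h, with no p since the split was made with results known. The 4 h arrays were spread from 0.13 to 0.60, the lowest being the first array.

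Among the genes tested outside the members, those with the group means most like Klf2 over the 7 groups were Fdps (Pearson r = 0.980), which encodes a farnesyl diphosphate synthase of the mevalonate pathway, Cdk20 (0.977), Pcyt2 (0.974), Itprid2 (0.967) and Zfp647 (0.967). Those most like Klf4 were Zfp354a (0.979), Fdps (0.978), Cpox (0.977), a heme synthesis enzyme gene, Fbxw2 (0.975) and Zfp563 (0.973). Those most like Rhob were Paqr7 (0.997), a progestin receptor gene, Trmo (0.994), Jade3 (0.993), Lrif1 (0.993) and Ywhah (0.991), a 14-3-3 gene. At 12 h these genes were between 0.15 (Cdk20) and 0.85 (Fbxw2) above the controls, with Fdps at 0.53, Paqr7 at 0.22 and Lrif1 at 0.70, all below the 1.49 to 1.76 of Klf2, Klf4 and Rhob. These values describe 7 means that share arrays and normalization across genes. The 12 h values were among those that chose Klf2, Klf4 and Rhob, while the like genes were picked by r. Their difference in size at 12 h is therefore no test.

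Among the other Klf genes and the related Sp factors, Klf16, Sp1 and Sp3 rose at 4 h, and at 24 h Klf11 and Sp3 rose and Klf16 fell. Of all genes tested 5.18% rose and 6.9% fell at 4 h, and 25.8% and 14.6% at 24 h. Of 8 Klf genes outside the members, 4 were tested. At 4 h 1 rose and 0 fell, and at 24 h 1 rose and 1 fell, with medians of 0.17 and -0.08 against 0.01 for all genes at both times. Klf16, a repressor gene, rose by 0.53 at 4 h (limma adjusted p = 0.000352) and was 0.37 below the controls at 24 h (0.00141). Klf11, a TGF-beta-inducible relative of Klf10, rose by 0.73 at 24 h (1.16e-06). Of 9 Sp genes 4 were tested. At 4 h 2 rose, Sp3 by 0.63 (adjusted p = 0.00117) and Sp1 by 0.53 (0.000118), both general GC-box binding factors, and at 24 h 1 rose, Sp3 by 0.72 (4.39e-05). The list medians were 0.32 and 0.08. Averaged over its probe sets, Sp1 was at 0.17 and lost its call (adjusted p = 0.649).

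Genes of the ERK5 and MEF2 pathway, known as inducers of Klf2 and Klf4 in endothelium, were all tested (8 of 8). At 4 h 1 rose and 0 fell (5.18% and 6.9% of all genes), and at 24 h 1 rose and 0 fell (25.8% and 14.6%). Mef2d, a MEF2 transcription factor gene, rose by 0.74 at 4 h (SE 0.07; limma adjusted p = 7.82e-06) and 0.56 at 24 h (SE 0.07; 5.19e-06). The list medians were -0.04 and -0.02. Mapk7, which encodes ERK5, was at -0.24 at 4 h (adjusted p = 0.144) and -0.20 at 24 h (0.121), past the test at neither. Transcript levels say nothing of the activity of this kinase.

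Of 8 textbook KLF2 and KLF4 target genes, 6 were tested. At 4 h 0 passed, and at 24 h 2 were higher and 3 lower (25.8% and 14.6% of all genes), with medians of -0.03 and -0.11. The cell cycle inhibitor gene Cdkn1c fell by 1.54 (limma adjusted p = 9.75e-06), the cyclin gene Ccnd1 fell by 1.05 (5.89e-07), and the inhibitor gene Cdkn1b rose by 0.59 (0.00617). The remaining calls, named after their values were seen, were Cdkn1a, another inhibitor gene, at 0.53 (0.000196), and the endothelial gene Nos3 at -0.19 (0.0344), below background in both groups. Endothelial markers were at background apart from Kdr, with Pecam1, Cdh5, Tek and Vwf below it in every group, and their log2 summed signal was 7.17 to 7.54.

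Of 8 genes for KLF corepressors and ubiquitin ligases, all were tested. At 4 h 0 rose and 2 fell (5.18% and 6.9% of all genes), and at 24 h 3 rose and 2 fell (25.8% and 14.6%), with medians of 0.00 and -0.08. Ctbp2, a corepressor that KLF3 recruits, fell by 0.48 at 4 h (limma adjusted p = 0.00567) and by 0.72 at 24 h (1.99e-05). Wwp1, a ubiquitin ligase known to act on KLF2 and KLF5, fell by 0.58 at 24 h (0.00028). Fbxo32, a ligase subunit gene, was 0.37 below the controls at 4 h (0.0265) and 0.50 above them at 24 h (0.000736). Its 4 h call was lost without the first control (-0.33; 0.113), the second control (-0.35; 0.0879), or replicate 1 or 3 at 4 h (-0.30 and -0.37; 0.106 and 0.065), and at 24 h the average over its probe sets was at -0.051 (0.827).

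Among markers of other cell types, the summed epithelial signal lay above the controls at 12 h and below them at 2, 4 and 24 h, without overlap. These markers had 3 of 5 above background in every group (Cdh1 and Krt8 were not), with a log2 summed signal of 10.0 to 10.1 in the controls and 10.3 to 10.4 at 12 h, where Klf2, Klf4 and Rhob were also highest by their means. It was 9.78 to 9.89 at 4 h and 9.80 to 9.91 at 24 h. Macrophage markers had 1 of 5 above background up to 4 h and 2 from 8 h on, when Cd68 joined, and summed to 7.10 to 7.19 in the controls and 7.26 to 7.52 at 24 h. Their part in the results was not tested. In RNA from a culture, fewer cells that express a gene and less of its RNA per cell cannot be told apart.

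**Figure D5:**
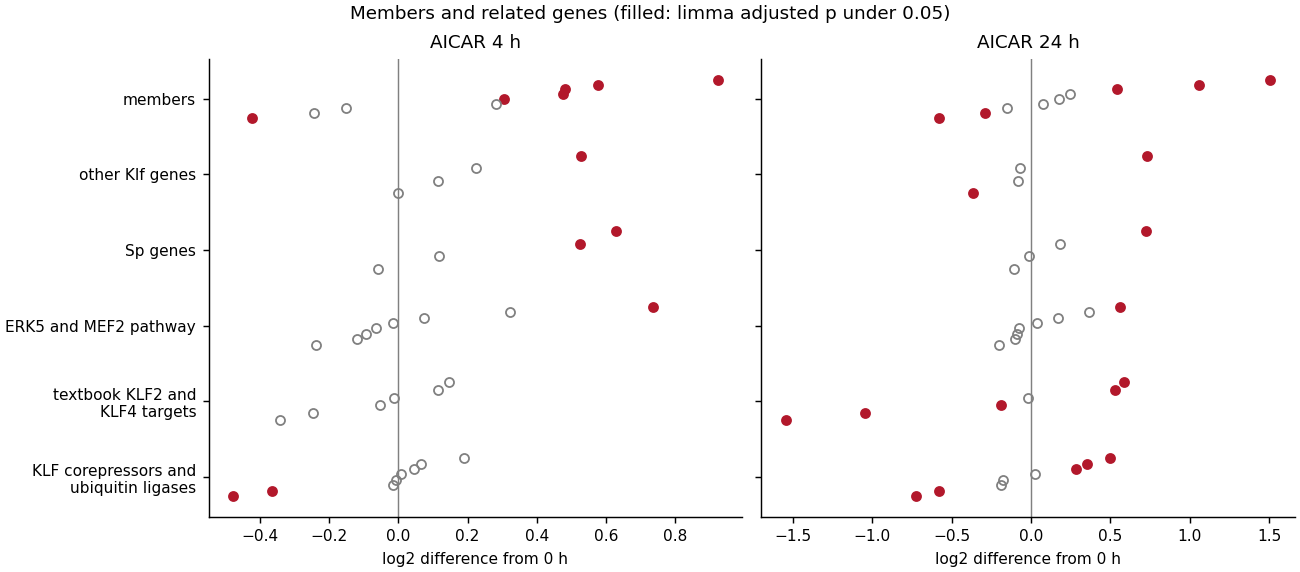
Difference from the 0 h controls, in log2 units, at 4 h (left) and 24 h (right) in 1 mM AICAR for each tested gene of the members and of 5 lists of related genes. Each circle is a gene and filled circles passed the limma test at an adjusted p under 0.05; Mef2d, at 0.74, is the only filled gene of the ERK5 and MEF2 row at 4 h.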

How the data were processed

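Total RNA, labelled with biotin, was hybridised per the labels' protocols. The authors deposited 1 table of log2 signal for 45141 probe sets on 20 arrays; the log2 scale was read from the values, and their background correction, summary method and normalization are not stated in the labels or the file. Of 29449 probe sets in the platform annotation, 28898 have a single symbol. Each of 17097 genes was represented by its brightest probe set, and kept if any group mean exceeded the 40th percentile of the table (4.81). That kept 12944; all 9 measured members passed. Of 19 member probe sets that passed on their own, each was also tested among all probe sets.

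Tests were two-sided, made with limma 3.58.1 in R 4.3.3 (lmFit and eBayes, a mean per group in 1 fit over all arrays, 13 residual degrees of freedom), adjusted by Benjamini-Hochberg over all genes of a comparison, at a threshold of 0.05. Standard errors come from this fit. The code was checked on simulated data. Precision is limited by the number of arrays. The members and gene lists were chosen with earlier results of these data known. The text names all members, up to 3 genes past the threshold per list with the largest difference at 4 and 24 h, and the 5 genes most like Klf2, Klf4 and Rhob, RIKEN and Gm loci skipped; some planned gene lists are not reported here. Replicate numbers were checked for pairing: of 15 same-number pairs of deviations, 8 correlated above 0.1 (-0.28 to 0.64), so arrays were not paired; only for 24 h against the controls did all 3 exceed it, and the blocked value is given where it changes a call there. Alternatives were quantile normalization, median centring, other filters, the mean of all probe sets, no _x_ or _s_ probe sets, trended robust variance, array weights, a replicate block, the compared groups alone, an interquartile range covariate, and leaving out each array. Promoter sequences are from RefSeq (GRCm38.p6). Plots used matplotlib 3.10.9 (Python 3.11.15).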

Additional observations from a re-analysis of the deposited data

How the results depend on the processing

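Over 45 member results, 760 alternative values were computed: 638 kept direction and side of the threshold, 54 lost a call, 43 gained one, 24 changed sign with no call and 1 changed sign with a call under the alternative alone. That one was Klf3 from 4 to 24 h, at 0.27 by its brightest probe set (not called, limma adjusted p = 0.0579) and -0.23 when its probe sets were averaged (0.00944). Among the gained calls, 8 were of Klf9 at 24 h, 7 of Klf3 from 2 to 4 h, 7 of Klf3 from 4 to 24 h, 4 of Klf9 at 4 h, 4 of Klf10 at 2 h and 4 of Klf13 from 2 to 4 h. The cause was not tested beyond the probe sets' own values. The calls of Klf4 and Rhob at 4 h, of Klf2, Klf4, Rhob and Klf5 at 24 h, and of Klf13 and Rhob from 4 to 24 h held under every alternative that could be run for them. The count of members called at 2 h, 2, became 1 with median centring, 1 with no filter, 0 with the mean of all probe sets (4 at an unadjusted p under 0.05, limma), 6 with array weights and 4 with the interquartile range covariate, and was 1 without any single array. At 4 h the count of 6 became 3 with the mean of all probe sets and 3 to 4 without single arrays. From 2 to 4 h the count of 4 became 0 in a fit of the compared groups alone (6 at an unadjusted p under 0.05, limma), where fewer arrays estimate the spread, and 3 to 5 without single arrays. From 4 to 24 h the count of 5 became 3 to 5, and at 24 h it was 4 to 5. The change of Klf2, Klf4 and Rhob against the other Klf genes moved at 1 h from -0.12 to -0.21 with the mean of all probe sets. Without single arrays it was 0.52 to 0.75 at 4 h and 1.08 to 1.16 at 24 h.

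With the replicate number as a block, 3 members were called at 2 h, 7 at 4 h, 6 at 24 h, 6 from 2 to 4 h and 6 from 4 to 24 h. The pairing check did not bear out this block, as over all comparisons 5 of 15 pairs correlated best with their own number. For 24 h against the controls all 3 pairs exceeded 0.1, but replicates 1 and 2 correlated best with control replicates 2 and 1. The block lost no member's call, and at 24 h it added that of Klf9. For the 16 list gene results, the same alternatives were chosen after seeing the data: 265 of 272 values kept the call, and 1 reversed, Fbxo32 at 24 h with the mean of all probe sets (-0.051). The array weight fit stopped before its tolerance was reached. Signal near background limits Klf5.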
